A study of Mus musculus with 2 samples.

Results

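The glucocorticoid receptor gene Nr3c1, the activating enzyme gene Hsd11b1 and 8 genes long used as readouts of receptor activity were followed in adipose stromal cells of mice carrying a Sox9 deletion and of control mice. The 10 genes were taken by symbol from the deposited table of 23647 genes: Nr3c1, Hsd11b1, Tsc22d3, Fkbp5, Sgk1, Zbtb16, Errfi1, Lcn2, Angptl4 and Pdk4. Metallothionein and C/EBP genes, which also respond to glucocorticoids, were left out of this set by its definition. Polyadenylated RNA came from cells positive for PDGFRa, a growth factor receptor on the surface of adipocyte precursors, sorted by flow cytometry from the stromal vascular fraction (the cells that remain after fat tissue is digested with collagenase and spun) of inguinal white adipose tissue. The 2 groups were Sox9 PreASKO mice, labelled KO, and Sox9 floxed mice, labelled WT, which carry the floxed Sox9 allele as well. Mice of both groups are labelled male, were 3 weeks old and had received doxycycline at postnatal day 1. The sources used here do not give the promoter that drives deletion in the PreASKO mice. Each group had 1 library, made from a pool of 3 mice per the series' design text. Differences between the libraries therefore have no replicate check, no test between genotypes was made, and intervals cover counting error only.

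In mice the circulating glucocorticoid is corticosterone. Within cells the enzyme encoded by Hsd11b1 regenerates it from its inactive keto form, and the enzyme encoded by Hsd11b2 does the reverse. The receptor waits in the cytoplasm bound to Hsp90 and its cochaperones, enters the nucleus once it has bound hormone, and binds DNA at glucocorticoid response elements, which are imperfect inverted repeats. In fat tissue glucocorticoids promote the differentiation of preadipocytes and are a standard part of the hormone mixture that starts this differentiation in culture.

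The element itself was looked for in the windows around annotated transcript starts, because it links the receptor to its targets at the level of sequence. RefSeq windows of GRCm38.p6 (the assembly mm10 is based on), running from 250 bases before to 50 bases after a start, matched 7 of the 10 genes, with 15 windows in all. The full consensus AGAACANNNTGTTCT, which reads the same on both strands, was present in 3 of 32851 windows genome-wide (0.00913%). One of these 3 windows belongs to Sgk1, the serum- and glucocorticoid-regulated kinase gene. The half-site TGTTCT, searched on both strands and contained in the full element, was in 19.0% of all windows and in windows of Sgk1 and Tsc22d3 among the 10 genes. Of the 4 windows of these genes with a half-site, 3 belong to Sgk1, including the one with the full element, and 1 to Tsc22d3. The Sgk1 window with the full element and the Tsc22d3 window are shown, in the part before the start and outside annotated exons, with full elements and half-sites in capitals. The half-sites in the other Sgk1 windows lie 195 and 13 bases before the transcript starts around which those windows were drawn. The Sgk1 stretch shown lies on the plus strand of chr10:21993640-21993889, inside the span of the gene, with the full element 189 bases before the start of the transcript. The Tsc22d3 stretch lies on the minus strand of chrX:140600660-140600772, with its half-site 185 bases before the RefSeq start.
Sgk1: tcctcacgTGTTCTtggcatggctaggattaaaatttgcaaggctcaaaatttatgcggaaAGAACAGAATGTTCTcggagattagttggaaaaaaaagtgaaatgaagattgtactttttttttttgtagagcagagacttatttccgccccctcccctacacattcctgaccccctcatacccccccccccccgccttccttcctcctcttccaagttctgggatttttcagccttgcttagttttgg
Tsc22d3: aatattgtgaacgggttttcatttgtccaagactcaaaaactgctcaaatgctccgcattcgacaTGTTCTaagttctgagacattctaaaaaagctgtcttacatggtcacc
A PPAR response element (AGGTCA repeated in the same direction with 1 base between, on both strands), of interest because Angptl4 and Pdk4 are also targets of the fatty acid receptors of the PPAR family, was in 13 of all windows and in none of the 15. A cyclic AMP response element (TGACGTCA, the same on both strands) was in 1.79% of all windows and in 1 window of Errfi1, an early-response gene. These matches describe letters in the windows and not bound sites, and no window of Nr3c1, Zbtb16 or Angptl4 was used here.

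The libraries held 37597048 counts (PreASKO) and 61761645 counts (floxed), each count being the sum of the deposited raw and repeat-distributed counts. Sox9 was at 17.0 CPM (the count scaled to a fixed library total) in the PreASKO library and at 28.6 CPM in the floxed library, a ratio of 0.595 (95% interval 0.542 to 0.651). Counts per gene do not show whether the deleted part was present. The sorting marker gene Pdgfra was at 603 CPM in PreASKO and at 716 CPM in floxed. The PreASKO library, labelled male, did not match that label in full: Xist, normally transcribed from the inactive X of females, was at 745 CPM in PreASKO and 3.24 CPM in floxed, while the Y-linked genes Ddx3y, Eif2s3y, Kdm5d and Uty lay between 9.12 and 39.5 CPM in PreASKO and between 12.5 and 40.6 CPM in floxed. Among these Y-linked genes Ddx3y had a CPM ratio of 0.973 (0.912 to 1.04). The ratios of Kdm5d (0.538, 0.480 to 0.603), Eif2s3y (0.625, 0.557 to 0.701) and Uty (0.730, 0.641 to 0.830) were lower. Since the PreASKO library is the only one of its group, no result could be given without it. All 15 macrophage markers with a row were higher in PreASKO, with a summed level of 2953 CPM in PreASKO against 1554 CPM in floxed. All 13 measured markers of mature adipocytes were lower, and the whole list summed to 430 CPM in PreASKO against 681 CPM in floxed. Endothelial markers summed to 501 CPM in PreASKO and 482 CPM in floxed, with 9 of 11 higher in PreASKO. Lyve1 (247 CPM in PreASKO, 239 CPM in floxed) and Tek (147 CPM in PreASKO, 154 CPM in floxed) made up most of both sums. The median log2 ratio of the 11 (scale given below) was 0.66. CPM ratios were 2.05 (1.71 to 2.45) for Cdh5 and 2.22 (1.91 to 2.58) for Kdr. Near-equal sums therefore do not show equal endothelial content. Lymphocyte markers summed to 4.84 CPM in PreASKO and 4.86 CPM in floxed. Of these, Cd3e was lower (1 count in PreASKO, 91 in floxed) and Cd79b higher (80 in PreASKO, 25 in floxed). The part that any of these differences between the pools had in the values that follow was not tested. In bulk RNA, fewer cells of a type and less RNA per cell cannot be told apart.

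Nr3c1, Hsd11b1, Fkbp5 and Sgk1 were lower in the PreASKO library, by less than 1.5-fold, and Tsc22d3, Zbtb16, Errfi1, Angptl4 and Pdk4 were higher. Log2 ratios are PreASKO minus floxed on the log2(CPM + 1) scale, where low genes appear closer together than their CPM are. They were set against the 13684 measured genes, those whose mean over both libraries reached 1 CPM. Lcn2 was the single one of the 10 genes below this minimum. Of these 9, 5 were higher and 4 lower, and their median log2 ratio was 0.34, against -0.04 over all genes, of which 45.5% were higher. This gap was not seen with the repeat-distributed count alone, one of the 2 deposited counts, where the medians were -0.031 for the 9 genes and -0.03 for all genes. With Lcn2 admitted, the median was 0.12. None of the 9 was at least 2-fold higher, where 2.11% of all genes were, and none at least 2-fold lower, where 1.52% of all genes were. At 1.5-fold, 3 of the 9 were higher (Tsc22d3, Angptl4 and Zbtb16), beside 7.89% of all genes, and none was lower, beside 8.18% of all genes. The CPM ratio intervals of Angptl4 (1.49 to 1.56) and Zbtb16 (1.43 to 1.62) include 1.5. With the repeat-distributed count alone both fell short of 1.5-fold, at log2 ratios of 0.42 and 0.19. Tsc22d3 fell short with the raw count alone, at 0.27.

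**Figure D1:**
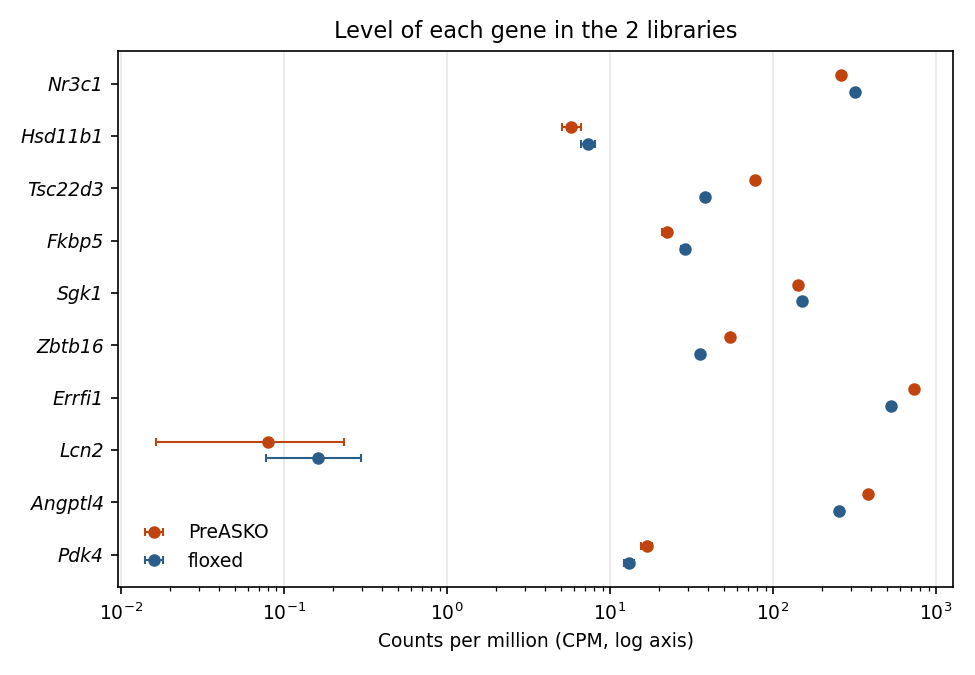
Levels in CPM of the 10 genes in the PreASKO library (orange, upper point) and the floxed library (blue, lower point) on a log axis, with exact 95% Poisson intervals that cover counting error only. Levels run from under 1 CPM for Lcn2 to 733 CPM (PreASKO) and 531 CPM (floxed) for Errfi1, and 5 genes lie further right in PreASKO.

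Nr3c1 encodes the receptor, a nuclear hormone receptor (Entrez ID 14815; chromosome 18, 39410545 to 39519421, GRCm38). It was at 260 CPM in PreASKO (9787 counts) and 320 CPM in floxed (19736 counts), a ratio of 0.815 (95% interval 0.795 to 0.835). The PreASKO library was the lower one, and 75.3% of measured genes had a higher ratio than Nr3c1. Of 10 marker genes of the sorted stromal cells, 3 were higher and 7 lower in PreASKO, with a median log2 ratio of -0.18. Among them Pdgfra had a ratio of 0.842 (0.829 to 0.856) and the stromal surface marker gene Ly6a a ratio of 1.31 (1.30 to 1.32). Per kilobase of annotated exon, Nr3c1 was the third most abundant of the 10 genes, at 33.9 CPM per kb in PreASKO and 41.6 CPM per kb in floxed. The related mineralocorticoid receptor gene Nr3c2, whose product binds corticosterone too, was at 4.31 CPM in PreASKO and 10.3 CPM in floxed (ratio 0.418, 0.349 to 0.497). Per kilobase of exon, Nr3c2 was at 0.666 CPM per kb in PreASKO and 1.59 CPM per kb in floxed, far below Nr3c1 in both. A transcript on the opposite strand shares exon bases with Nr3c2, and with strand use in counting unknown the Nr3c2 value is uncertain.

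Hsd11b1, the activating reductase (ID 15483; chromosome 1, 193221640 to 193264045), was near the low end of the set. It stood at 5.80 CPM in PreASKO (218 counts) and 7.33 CPM in floxed (453 counts), a ratio of 0.791 (0.669 to 0.931). The level was lower in PreASKO, with an interval that is wide because the counts are few. The opposing enzyme gene Hsd11b2 was at 23.4 CPM in PreASKO and 26.4 CPM in floxed, a ratio of 0.885 (0.814 to 0.961). The direction of the Hsd11b2 ratio depended on the count column. Its raw count was higher in PreASKO (409, against 348 in floxed), and its repeat-distributed count was lower (469, against 1282 in floxed). Per kilobase of exon, Hsd11b2 was the more abundant one, at 12.7 CPM per kb in PreASKO and 14.3 CPM per kb in floxed, where Hsd11b1 was at 1.36 CPM per kb in PreASKO and 1.73 CPM per kb in floxed. H6pd, which supplies the NADPH that the activating reaction uses, was at 192 CPM in PreASKO and 198 CPM in floxed (ratio 0.970, 0.942 to 0.999). RNA levels of these enzymes do not measure the hormone, which was not assayed.

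Fkbp5 is a cochaperone of Hsp90 that lowers the receptor's affinity for hormone and is itself induced by the receptor (ID 14229; chromosome 17, 28398753 to 28486149). It was at 22.3 CPM in PreASKO (837 counts) and 28.8 CPM in floxed (1778 counts), a ratio of 0.773 (0.711 to 0.840). Among the 9 measured genes it had the lowest log2 ratio, -0.36, and the PreASKO level lay below the floxed level in both count columns. Sgk1, a kinase that regulates ion channels and transporters (ID 20393; chromosome 10, 21882184 to 21999903), was at 142 CPM in PreASKO (5322 counts) and 151 CPM in floxed (9331 counts). Its ratio of 0.937 (0.906 to 0.969) was the closest to 1 in the set, and 55.7% of measured genes had a higher one.

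Tsc22d3, which encodes the leucine zipper protein GILZ and mediates part of the anti-inflammatory action of glucocorticoids, differed most (ID 14605; chromosome X, 140539528 to 140600522). It was at 77.1 CPM in PreASKO (2900 counts) and 38.3 CPM in floxed (2365 counts). The PreASKO level was the higher one, with a CPM ratio of 2.01 (1.91 to 2.13), and only 2.16% of measured genes had a higher log2 ratio. On the log2(CPM + 1) scale its ratio was 0.99, just short of 2-fold, and the fold in the authors' deposited table was 2.10. The 2-fold cutoff therefore runs through the counting interval of this gene. Tsc22d3 is X-linked, and Xist differed between the libraries. The median log2 ratio of X-linked genes was -0.03 over 444 measured genes, of which 210 were higher in PreASKO, beside -0.04 over all genes. A median over many genes does not bear on a single one. The part of the Xist difference between the pools in the Tsc22d3 value was not tested.

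Zbtb16, a zinc finger transcriptional repressor also called PLZF and a strongly glucocorticoid-inducible gene (ID 235320; chromosome 9, 48651797 to 48836225), was at 54.3 CPM in PreASKO (2043 counts) and 35.7 CPM in floxed (2203 counts). The ratio was 1.52 (1.43 to 1.62), higher in PreASKO. Errfi1 encodes Mig-6, a feedback inhibitor of the EGF receptor (ID 74155; chromosome 4, 150853796 to 150868889). It was at 733 CPM in PreASKO (27576 counts) and 531 CPM in floxed (32794 counts). Per kilobase of exon it was the most abundant of the 10 genes, at 205 CPM per kb in PreASKO and 148 CPM per kb in floxed. Its ratio was 1.38 (1.36 to 1.40), with the narrowest relative interval of the set.

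Angptl4 and Pdk4 are metabolic targets. Angptl4 encodes a secreted inhibitor of lipoprotein lipase (ID 57875; chromosome 17, 33774900 to 33781575) and was at 385 CPM in PreASKO (14491 counts) and 253 CPM in floxed (15624 counts), a ratio of 1.52 (1.49 to 1.56). Pdk4 encodes a kinase that switches off pyruvate dehydrogenase and so spares glucose (ID 27273; chromosome 6, 5483351 to 5496278), and was at 16.8 CPM in PreASKO (633 counts) and 13.1 CPM in floxed (809 counts). Its ratio was 1.29 (1.16 to 1.43), higher in PreASKO, but the log2 ratio was -0.13 with the repeat-distributed count alone. Both genes are active in adipocytes as well, and adipocyte markers were lower in sum, at 430 CPM in PreASKO against 681 CPM in floxed. The part of adipocyte RNA in these values was not tested.

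Lcn2, a secreted protein that binds bacterial iron carriers and is released by neutrophils and inflamed tissue (ID 16819; chromosome 2, 32384637 to 32387739), was barely detected. It had 3 counts (0.0798 CPM) in PreASKO and 10 counts (0.162 CPM) in floxed, with a ratio of 0.493 whose interval ran from 0.0872 to 1.91. A difference in Lcn2 was not detectable at this depth. Of 9 neutrophil markers with a row, only Mmp9, which other cells make too, reached a mean of 1 CPM. The list summed to 39.8 CPM in PreASKO and 18.2 CPM in floxed, of which Mmp9 was 37.2 CPM and 16.8 CPM. The defining neutrophil gene S100a8 had 1 count in PreASKO and 0 in floxed. Cxcr2 (23 counts) and Ngp (9 counts) also had 0 in floxed. Retnlg (20 counts in PreASKO, 42 in floxed) had a CPM ratio of 0.782 (0.435 to 1.36). For Mmp8 (0 counts in PreASKO, 7 in floxed) the interval ran from 0 to 1.14. Both intervals include 1.

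Taken per kilobase of exon, the order of levels was the same in both libraries: Errfi1, Angptl4, Nr3c1, Sgk1, Tsc22d3, Zbtb16, Pdk4, Fkbp5, Hsd11b1 and Lcn2. Counting intervals of neighbours in this order did not overlap in either library. Tsc22d3, at 17.8 CPM per kb in PreASKO and 8.82 CPM per kb in floxed, stood next to Zbtb16 at 10.3 CPM per kb in PreASKO and 6.75 CPM per kb in floxed. Pdk4, at 4.80 CPM per kb in PreASKO and 3.73 CPM per kb in floxed, stood next to Fkbp5 at 2.35 CPM per kb in PreASKO and 3.04 CPM per kb in floxed. With 1 library a genotype, the spread of this order between animals is not known.

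**Figure D2:**
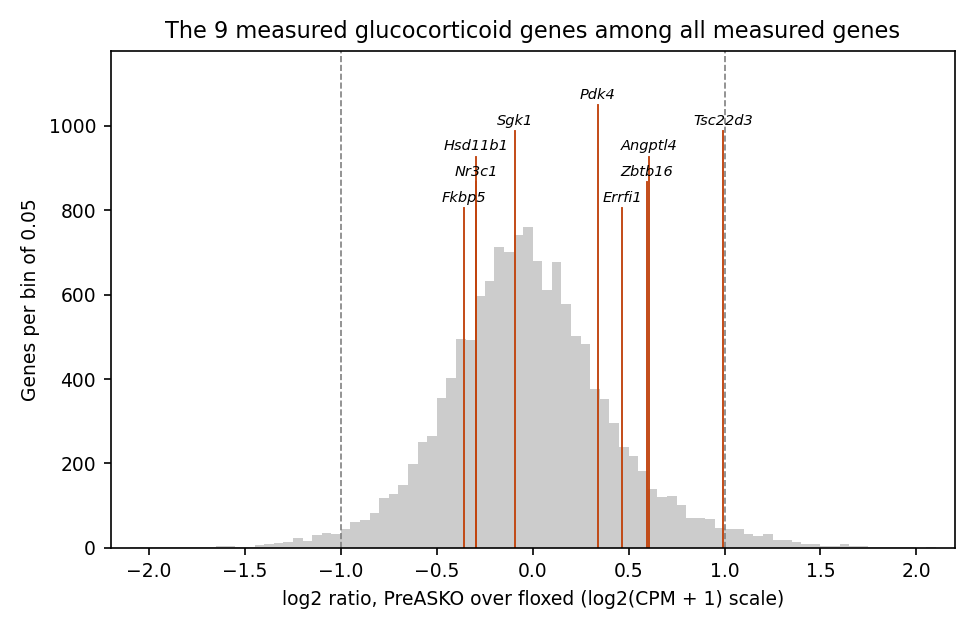
Histogram of log2 ratios (PreASKO over floxed, log2(CPM + 1) scale) of 13684 measured genes (grey), with the 9 measured glucocorticoid genes as orange lines and 2-fold as dashed lines. Fkbp5, Nr3c1, Hsd11b1 and Sgk1 lie within the bulk of genes on the lower side, and Tsc22d3 lies at the upper 2-fold line.

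The genes differed in how their counts were divided between the deposited columns, a raw count and a repeat-distributed count. Over genes with at least 100 counts in floxed, the raw count held a median of 54.3% of the summed count in PreASKO and 49.5% in floxed for 3211 genes with 1 RefSeq transcript. For 2125 genes with 2 transcripts the medians were 2.37% in PreASKO and 2.36% in floxed, and for 7267 genes with 3 or more they were 0.334% in PreASKO and 0.475% in floxed. Among the 10 genes, the raw count held 93.1% (PreASKO) and 91.2% (floxed) for Fkbp5, which has 1 transcript, and 0.194% (PreASKO) and 0.228% (floxed) for Nr3c1, which has 15. For Zbtb16, with 2 transcripts, it held 56.3% in PreASKO and 40.0% in floxed.

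The ratio of some genes moved when each column was used alone with its own total. Pdk4 had a log2 ratio of 0.68 with the raw count and -0.13 with the repeat-distributed count, on either side of its summed value of 0.34. For Zbtb16 the values were 0.93 and 0.19, against 0.59 for the sum. Errfi1 and Angptl4 kept positive values in both columns, at 0.55 and 0.64 with the raw count and 0.51 and 0.42 with the repeat-distributed count. The raw column holds just 10 Tsc22d3 counts in each library, where the log2 ratio was 0.27, against 1.04 in the repeat-distributed column that holds nearly all of them. Nr3c1, Hsd11b1, Fkbp5 and Sgk1 were lower in PreASKO in both columns. The raw column holds few counts of Hsd11b1 (4 in PreASKO, 14 in floxed) and of Nr3c1 (19 in PreASKO, 45 in floxed). Sgk1, at -0.09 for the sum, was at -0.53 with the raw count and -0.03 with the repeat-distributed count. Of the 10 genes, 3 have another gene within their span and 0 share exon bases with it on either strand.

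**Figure D3:**
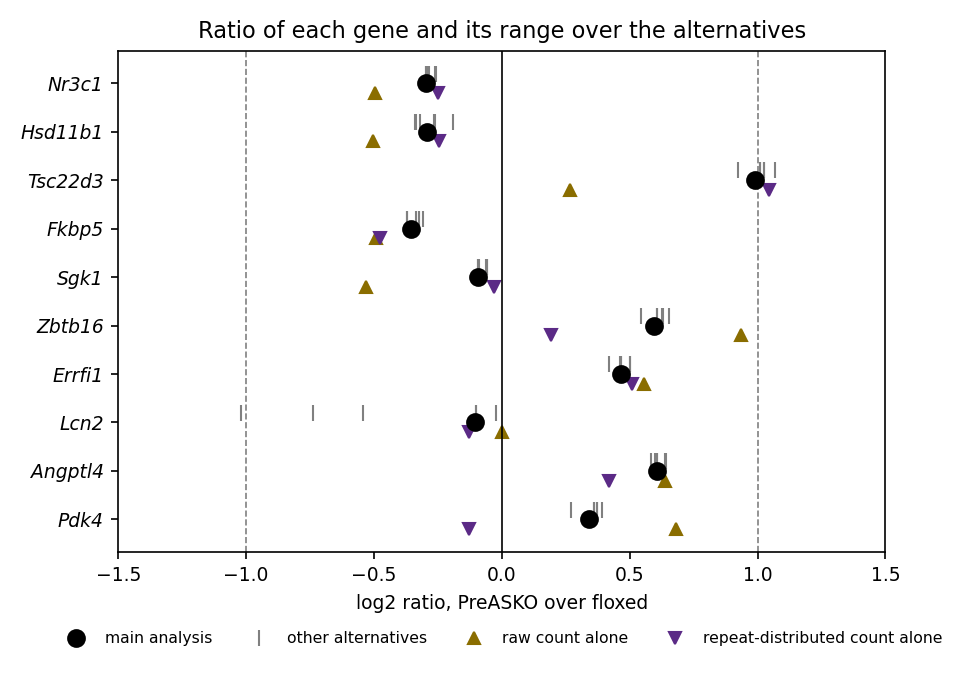
The log2 ratio (PreASKO over floxed) of each of the 10 genes in the main analysis (black), with the raw count alone (upward triangles), with the repeat-distributed count alone (downward triangles) and under the remaining alternatives (grey ticks). Pdk4 is the gene whose 2 triangles lie on different sides of 0 (0.68 and -0.13), and Tsc22d3 sits at the dashed 2-fold line except with the raw count alone (0.27).

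**Figure D4:**
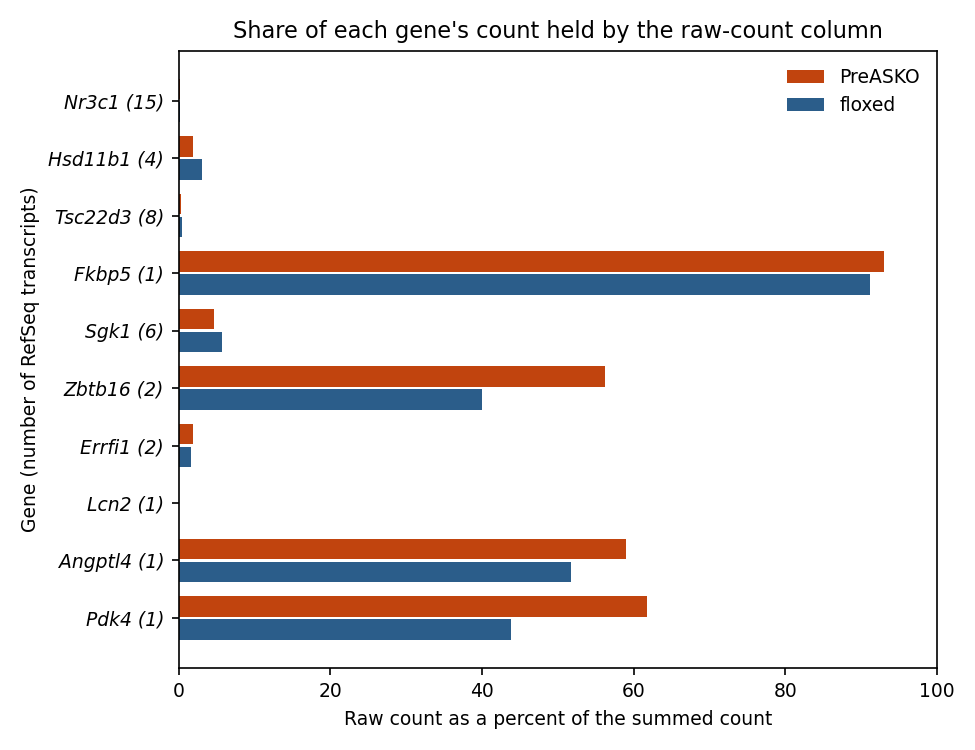
Share of each gene's summed count that the raw-count column holds, in percent, in the PreASKO library (orange, upper bar) and the floxed library (blue, lower bar), with the number of RefSeq transcripts in brackets. Fkbp5 (93.1% in PreASKO, 91.2% in floxed) and Nr3c1 (0.194% in PreASKO, 0.228% in floxed) mark the extremes among the genes with over 10 counts, and Lcn2 has no raw counts.

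Most genes of the machinery around the receptor lay near the median of all genes. Of 18 genes for the mineralocorticoid receptor, the Hsp90 chaperone complex and the coregulators, 8 were higher and 10 lower in PreASKO, with a median log2 ratio of -0.04, equal to that of all genes to 2 decimals, and 15 lay within 1.5-fold. Apart from Nr3c2 (-1.09), the largest ratios belonged to Med1, a subunit of the Mediator complex, at 67.8 CPM in PreASKO and 107 CPM in floxed, and to Hsp90aa1, the inducible Hsp90 gene, at 540 CPM in PreASKO and 345 CPM in floxed. In the group of steroid synthesis, metabolism and efflux, 7 of 10 listed genes had a row and 5 were measured, of which 3 were higher and 2 lower, with a median of 0.11, which was -0.04 at a minimum of 5 CPM. The efflux pump genes Abcb1a (2.05 CPM in PreASKO and 0.615 CPM in floxed) and Abcb1b (5.35 CPM in PreASKO and 4.65 CPM in floxed) are close paralogs that share exon bases with transcripts on the opposite strand, so their values are uncertain. Cyp11a1 and Cyp21a1, enzymes of adrenal steroid synthesis, were under 1 CPM in both libraries.

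Other genes known to be induced by glucocorticoids leaned to higher values in PreASKO. Of 27 listed genes 24 were measured, 16 higher and 8 lower, beside 45.5% of all measured genes higher. Past the 2-fold cutoff 3 were higher and 0 lower, beside 2.11% and 1.52% of all genes, and the median was 0.20, against -0.04 over all genes. Fam107a, a stress-induced actin-associated gene, was at 7.26 CPM in PreASKO (273 counts) and 1.10 CPM in floxed (68 counts), a ratio of 6.60 (5.04 to 8.73). Ddit4, an inhibitor of mTOR signalling also known as REDD1, was at 24.3 CPM in PreASKO and 9.63 CPM in floxed, a ratio of 2.53 (2.28 to 2.81). The third was Cd163, the haemoglobin scavenger receptor, at 96.4 CPM in PreASKO and 42.7 CPM in floxed. Cd163 is a macrophage marker, and macrophage markers summed to 2953 CPM in PreASKO and 1554 CPM in floxed, whose part in the value was not tested. The clock gene Per1 was at 95.1 CPM in PreASKO and 72.7 CPM in floxed (ratio 1.31, 1.25 to 1.37). The transcription factor gene Klf9 was at 155 CPM in PreASKO and 132 CPM in floxed (ratio 1.17, 1.13 to 1.21). The MAP kinase phosphatase gene Dusp1 was at 3091 CPM in PreASKO and 2108 CPM in floxed (ratio 1.47, 1.45 to 1.48). Of the 8 lower genes, Agt, which encodes the precursor of angiotensin, had the lowest ratio, at 12.9 CPM in PreASKO and 24.8 CPM in floxed (ratio 0.521, 0.469 to 0.577). Dusp1 is also an immediate early gene, and of 12 measured immediate early and heat shock genes 7 were higher in PreASKO, with a median of 0.15. Among them, Zfp36 was at 7478 CPM in PreASKO and 3173 CPM in floxed and Dnajb1 at 947 CPM in PreASKO and 700 CPM in floxed, whereas Egr2 was at 155 CPM in PreASKO and 282 CPM in floxed. Zfp36 (125 bases) and Dusp1 (11 bases) share exon bases with a gene on the opposite strand. How much this adds to their values was not tested.

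Genes that glucocorticoids repress were not lower as a group. Of 12 inflammatory genes of this kind 9 were measured, 7 higher and 2 lower in PreASKO, beside 45.5% of all genes higher, with a median of 0.28. The collagenase gene Mmp13 was at 1.78 CPM in PreASKO (67 counts) and 0.243 CPM in floxed (15 counts), a ratio of 7.34 (4.15 to 13.8). The cytokine genes Il1b (4.55 CPM in PreASKO, 2.17 CPM in floxed) and Tnf (27.6 CPM in PreASKO, 15.9 CPM in floxed) were higher in PreASKO too, the library with the higher macrophage markers, and macrophages make both. Il1b shares exon bases with an antisense gene. Ptgs2, the inducible cyclooxygenase gene, was lower, at 154 CPM in PreASKO and 224 CPM in floxed (ratio 0.687, 0.666 to 0.708). Induced and repressed targets had medians of the same sign, 0.20 and 0.28, and the cause was not tested. The repressed median was 0.15 with the repeat-distributed count alone and 0.16 at a mean of at least 5 CPM.

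Of the 5 metallothionein and C/EBP genes kept out of the set by its definition, all were higher in PreASKO, and 4 were at least 2-fold higher, beside 45.5% and 2.11% of all genes. Mt1, a metal-binding metallothionein gene, was at 629 CPM in PreASKO and 206 CPM in floxed, a ratio of 3.06 (2.99 to 3.12). The transcription factor genes Cebpd (554 CPM in PreASKO, 180 CPM in floxed, ratio 3.08) and Cebpb (52.0 CPM in PreASKO, 18.7 CPM in floxed, ratio 2.78) act early in adipocyte differentiation, and each shares exon bases with a gene on the opposite strand. Cebpa, which acts later, was at 45.3 CPM in PreASKO and 43.8 CPM in floxed.

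**Figure D5:**
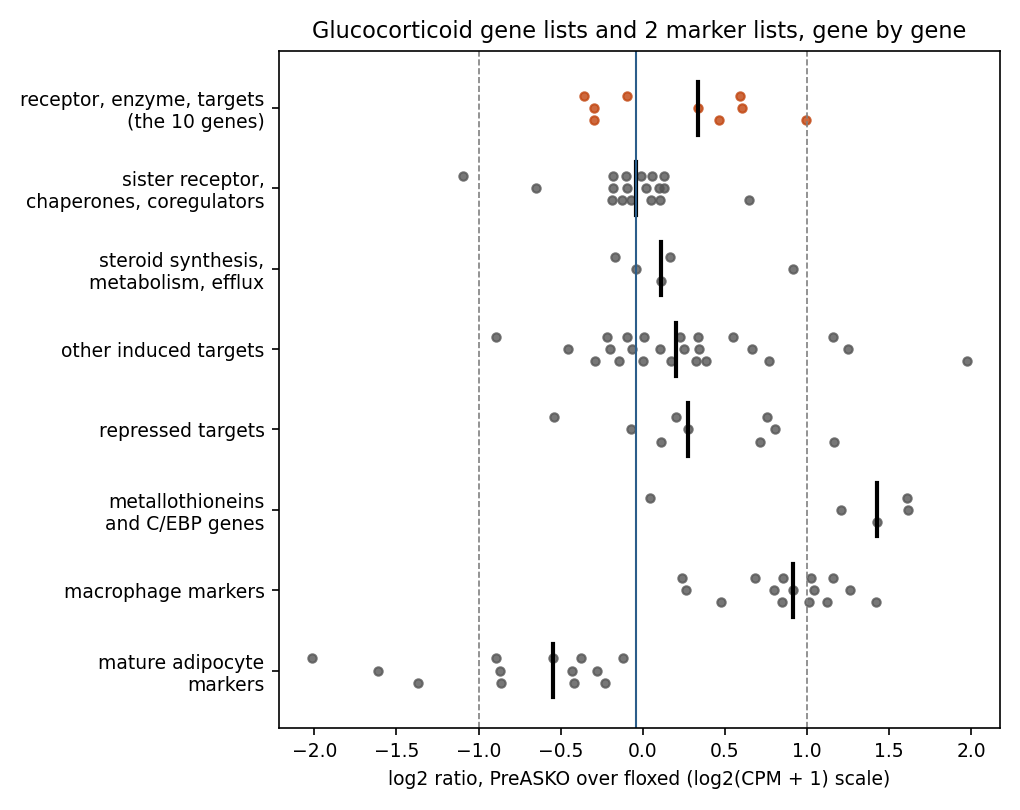
Each point is the log2 ratio (PreASKO over floxed, log2(CPM + 1) scale) of 1 measured gene, by list, with the list's median as a black bar, the median of all genes (-0.04) as a blue line and 2-fold as dashed lines. The 9 measured glucocorticoid genes (orange) range from -0.36 to 0.99, the receptor machinery centres on the median of all genes, and macrophage and mature adipocyte markers lie on opposite sides.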

How the data were processed

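One library per genotype was compared, each from pooled mice. Per the submitters' processing notes, reads were placed on mm10. Which aligner, counter and annotation were used, and whether strand was used, is not given in the sources used here. Per the file headers, the authors deposited a raw count and a repeat-distributed count per gene (an estimated count, since some values are fractional) and a fold change, a ratio whose scaling is not stated. The main value was the sum of both counts over the library total, as CPM. This sum was taken over from earlier work on these data. Of 23669 rows, 24 carrying a date as symbol were named through their Entrez ID where it matched, and rows sharing an ID were summed for 21 IDs. Filter, pseudocount (1 CPM) and cutoff (2-fold) follow the report, and the series' design text names the cutoff. With 1 library per genotype no test was possible. Levels have exact 95% Poisson intervals and ratios exact 95% binomial (Clopper-Pearson) intervals, with estimated counts rounded. These cover counting error only. A share of 3 counts is 0.0798 CPM in PreASKO and 0.0486 CPM in floxed.

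The 10 genes and the 15 other lists were chosen with earlier results of these data known. Genes named from a list are the 3 with the largest ratios in size, plus Nr3c2, Hsd11b2, H6pd, Per1, Klf9 and Dusp1, with Sox9, Xist and Y-linked genes as checks. Pdgfra, Ly6a, Agt, Ptgs2, Ppard, Mmp9, Cyp11a1, Cyp21a1, Cebpa and S100a8 were named after their values were seen. So were the markers Lyve1, Tek, Cdh5, Kdr, Cd3e, Cd79b, Cxcr2, Ngp, Retnlg and Mmp8. With 2 libraries a pattern is a single ratio, so no gene was sought by likeness. Coordinates and promoter sequences are from RefSeq (GRCm38.p6), and exon lengths (all annotated exons merged) and overlaps from GENCODE M21 on the same assembly. Overlaps were not looked up for the genes named after their values were seen. The ratio and interval procedure was run on simulated Poisson counts. These follow the model that the intervals assume and hold no variation between mice, so they check the calculation only. Alternatives used edgeR 4.0.16 for TMM factors. Other work used Python 3.11.15, pandas 2.3.3, NumPy 2.4.6 and SciPy 1.17.1.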

Additional observations from a re-analysis of the deposited data

How the results depend on the processing

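With 1 library per genotype, no library could be left out. No paired analysis was possible because each group has a single library. Besides 11 alternatives set at the outset, a run with no pseudocount was added after the data were seen. The number of the 9 measured genes at least 2-fold higher was 0 in the main analysis and 1 (Tsc22d3) with a pseudocount of 0.1, no pseudocount, the repeat-distributed count alone, TMM scaling, median-of-ratios scaling and the authors' deposited table of fold changes. It was 3 at a 1.5-fold cutoff. None was past the cutoff on the lower side in any alternative. The median of the measured genes, 0.34, was 0.12 with no filter, which admits Lcn2, 0.55 from raw counts alone (7 genes) and -0.031 from repeat-distributed counts alone. Pdk4 turned to -0.13 with the repeat-distributed count alone, and the cause was not tested. Nr3c1, Hsd11b1, Fkbp5, Sgk1, Tsc22d3, Zbtb16, Errfi1 and Angptl4 kept their direction in all 8 alternatives that change a ratio, and Lcn2, with no raw counts, was at 0.00 from raw counts alone. Over all genes, 289 higher and 208 lower became 515 and 412 at a pseudocount of 0.1, 58 and 28 at 5, 552 and 446 without one, 153 and 93 at a mean of at least 5 CPM, 465 and 907 from raw counts alone, 597 and 471 by the authors' deposited table, 1080 and 1120 at 1.5-fold, and 30 and 22 at 3-fold. TMM and median-of-ratios scaling moved the median of all genes to -0.01 from -0.04. Depth limits Lcn2, and Hsd11b1 to a lesser degree.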

Other observations

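Genes of the PPAR family and its targets, which share Angptl4 and Pdk4 with the glucocorticoid receptor, lay on both sides. Of 13 measured genes, 8 were higher and 5 lower in the PreASKO library, with a median log2 ratio of 0.08, and 11 lay within 1.5-fold. Fabp4, a lipid chaperone found in adipocytes and macrophages, was at 443 CPM in PreASKO and 216 CPM in floxed, a ratio of 2.05 (2.01 to 2.10). With the summed count the receptor genes lay on both sides. Pparg was at 84.1 CPM in PreASKO and 139 CPM in floxed (ratio 0.603, 0.579 to 0.629). Ppara was at 3.06 CPM in PreASKO and 4.45 CPM in floxed (ratio 0.687, 0.548 to 0.857). Ppard was at 31.3 CPM in PreASKO and 23.1 CPM in floxed (ratio 1.36, 1.25 to 1.47). The direction of Ppard depended on the count column. Scaled to each column's own total, its raw count (213 in PreASKO, 371 in floxed) was lower in PreASKO. Its repeat-distributed count (963 in PreASKO, 1054 in floxed) was higher on the same scaling.

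Genes of the acute-phase response, to which Lcn2 also belongs, were spread to both sides. Of 10 measured genes, 6 were higher and 4 lower in PreASKO, with a median of 0.17. Hp, which encodes the haemoglobin-binding protein haptoglobin, was at 4.60 CPM in PreASKO (173 counts) and 1.20 CPM in floxed (74 counts), a ratio of 3.84 (2.91 to 5.11). Cp, the copper carrier ceruloplasmin, was at 73.8 CPM in PreASKO and 54.5 CPM in floxed, and shares exon bases with a gene on the opposite strand. The CPM ratio of Cp was 1.35 (1.29 to 1.42), whereas its fold in the authors' deposited table was 3.79. Saa3, a serum amyloid gene, was at 2.61 CPM in PreASKO (98 counts) and 4.66 CPM in floxed (288 counts), a ratio of 0.559 (0.440 to 0.705).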
